A study of Mus musculus with 8 samples.

Results

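The 10 genes described here, Srebf1, Mlxipl, Acly, Me1, Acaca, Acacb, Fasn, Scd1, Elovl6 and Gpam, regulate or carry out fatty acid synthesis in the liver. They were chosen by name from the 22028 protein-coding genes that GENCODE M21 annotates on the mouse mm10 build, and each was examined over its annotated body and 10 kb to either side. Open chromatin was profiled by ATAC-seq, in which a transposase cuts and tags accessible DNA, in nuclei of frozen liver from adult C57BL/6 mice. The study's methods give the strain as C57BL/6J. In the 4 Alb-D2KO libraries, floxed Dio2, the gene of the thyroxine-activating type 2 deiodinase, was inactivated by Cre recombinase expressed under the albumin promoter, which is active in hepatocytes. The 4 control libraries have the word cre in their titles, and every transposase reaction held 50000 nuclei. Open regions were called on the pooled libraries of each genotype, and 8031 control regions that overlapped no Alb-D2KO region made up the areas of reduced chromatin accessibility (RCAs), beside 250 regions found only in Alb-D2KO liver. An RCA is therefore a region absent from the other call and not a tested difference. The lists carry no replicate values, so no spread between animals can be given, and the depth of each library is unknown. Fewer hepatocytes, less open chromatin per cell and lower depth cannot be told apart in such lists.

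Fatty acids are built in the cytosol from citrate, which is split to acetyl-CoA, carboxylated to malonyl-CoA and condensed by fatty acid synthase with reducing power from NADPH. The palmitate that results is elongated, desaturated and esterified to glycerol. In the liver the genes of the pathway are induced after feeding by the transcription factors SREBP-1c and ChREBP, which respond to insulin and to glucose metabolites, and several of them are classical targets of thyroid hormone.

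The sequences of 6 stretches in or beside RCAs of these genes are given first, as examples. They come from the promoters of Mlxipl and Me1 and the introns of Srebf1, Mlxipl and Acly, and were not chosen by area. They were read 5′ to 3′ on the strand of the gene from the GRCm38 (mm10) assembly, and none overlaps an annotated exon of the gene. The promoter stretches begin up to 250 bases before a RefSeq start site, and the introns are shown for 100 bp to each side of the RCA summit. Capitals mark matches to any of 5 motifs, searched on both strands with overlaps allowed. These were TCACNCCAC (the core of a sterol regulatory element), CACGTG (an E-box), CCAAT (the NF-Y box), GGGCGG (the SP1 box) and DR4, a pair of AGGTCA half-sites in the same direction 4 bases apart with at most 1 mismatch in each. A match is a description of letters and not a bound site.
Mlxipl upstream promoter, chr5:135089640-135089889, plus strand: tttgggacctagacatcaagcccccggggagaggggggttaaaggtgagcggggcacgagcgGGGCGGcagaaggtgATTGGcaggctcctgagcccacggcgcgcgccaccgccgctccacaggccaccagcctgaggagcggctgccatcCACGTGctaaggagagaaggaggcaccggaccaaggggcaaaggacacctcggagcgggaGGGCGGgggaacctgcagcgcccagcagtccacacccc
Mlxipl downstream promoter, chr5:135106641-135106868, plus strand: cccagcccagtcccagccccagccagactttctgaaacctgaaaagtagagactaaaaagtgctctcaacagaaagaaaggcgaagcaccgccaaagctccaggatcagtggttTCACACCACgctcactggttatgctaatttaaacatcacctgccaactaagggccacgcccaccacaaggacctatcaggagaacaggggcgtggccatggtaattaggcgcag
Mlxipl intron, chr5:135100848-135101048, plus strand: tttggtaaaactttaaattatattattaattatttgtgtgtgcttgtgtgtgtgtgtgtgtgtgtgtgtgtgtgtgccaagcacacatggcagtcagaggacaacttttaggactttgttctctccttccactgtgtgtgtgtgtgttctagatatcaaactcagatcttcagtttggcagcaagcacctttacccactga
Srebf1 intron, chr11:60209340-60209540, minus strand: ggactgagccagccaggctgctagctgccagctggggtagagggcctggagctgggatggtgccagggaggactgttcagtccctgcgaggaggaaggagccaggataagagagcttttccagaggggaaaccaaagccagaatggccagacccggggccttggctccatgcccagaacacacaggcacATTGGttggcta
Acly intron, chr11:100518376-100518576, minus strand: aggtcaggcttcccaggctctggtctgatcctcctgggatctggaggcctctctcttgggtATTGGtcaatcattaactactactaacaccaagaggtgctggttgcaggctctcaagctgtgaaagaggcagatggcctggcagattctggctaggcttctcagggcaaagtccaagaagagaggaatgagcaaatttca
Me1 promoter, chr9:86695954-86696164, minus strand: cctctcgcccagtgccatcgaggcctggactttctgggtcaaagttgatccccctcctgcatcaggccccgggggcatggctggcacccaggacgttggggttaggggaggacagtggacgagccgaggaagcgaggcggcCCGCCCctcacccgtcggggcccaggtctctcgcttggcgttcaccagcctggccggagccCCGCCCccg

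The upstream Mlxipl promoter held an E-box from 135089792 to 135089797, an NF-Y box and 2 SP1 boxes, and all of these lay inside the RCA that covered the start site. The downstream Mlxipl promoter held the core of a sterol regulatory element, TCACACCAC, from 135106755 to 135106763, also inside its RCA. Over the same 228 leading bases, that core was found in 0.941% of all 32851 RefSeq promoters. Over the 250 bases before the start, as printed for the upstream promoter, an E-box was found in 6.02% of them, an NF-Y box in 33.8% and an SP1 box in 32.7%. The Me1 promoter held 2 SP1 boxes, and 26.9% of all promoters had at least 1 in the same 211 bases. It held no DR4 under the limit of 1 mismatch in each half-site. Inside its RCA, GGGTTA and AGGACA stand 4 bases apart in the same direction, but GGGTTA differs from AGGTCA at 2 bases. The absence of a DR4 match there thus rests on that limit, and looser pairs were not counted at any promoter. The full promoters run from 250 bases before to 50 bases after the start, and 1.24% of them held the sterol element core, 7.15% an E-box, 37.4% an NF-Y box, 35.7% an SP1 box and 1.75% a DR4. The table of promoters held 14 promoters of 9 of the 10 genes, all except Scd1. Of those 14 full promoters, 1 held the sterol element core, 1 an E-box, 8 an NF-Y box, 6 an SP1 box and 0 a DR4. Only 3 of the 14 overlapped an RCA, and 7 of the 8 with an NF-Y box and 4 of the 6 with an SP1 box did not. Matches of 2 different motifs did not overlap in any of the 6 stretches.

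Within 100 bp of the summit, 14 RCAs of 6 of the genes were scanned beside 8021 RCAs on the assembled chromosomes. The scan of single genes was limited to those in the table of promoters, so the 3 RCAs of Scd1 are not among the 14. An NF-Y box was found in 3 of the 14 and in 23.5% of all RCAs, and an SP1 box in 1 of the 14 and in 14.4% of all RCAs. The sterol element core (0.785% of all RCAs), the E-box (5.82%) and DR4 (2.79%) had no match in these 14 windows. The NF-Y box in the Srebf1 intron lay from 60209347 to 60209351 and the one in the Acly intron from 100518511 to 100518515. The intron of Mlxipl was read from the RCA with the largest area among these genes, and it consisted in part of a run of TG repeats with no match to any motif.

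RCAs lay in or within 10 kb of 7 of the 10 genes, and 25.0% of all protein-coding genes (5500 of 22028) had an RCA by the same rule. The 7 genes were Srebf1, Mlxipl, Acly, Acaca, Scd1, Me1 and Gpam, and together they held 17 RCAs. The other 3 genes, Acacb, Fasn and Elovl6, had none. Since longer genes offer more room, each gene was set beside protein-coding genes of similar length, of which on average 31.4% had an RCA. An RCA needs an open region in control liver, and both shares take in genes whether or not they had one. Neither share therefore tells whether these genes lost more of their open regions than others, which was not tested. Mlxipl with 5 RCAs and Srebf1 and Scd1 with 3 each stood highest, and 3.77% of all protein-coding genes had 3 or more. No Alb-D2KO-only region lay within 10 kb of any of the 10 genes (1.02% of all protein-coding genes had one), nor within 50 kb (2.19%), and at such low shares a count of 0 among 10 genes does not set them apart.

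**Figure D1:**
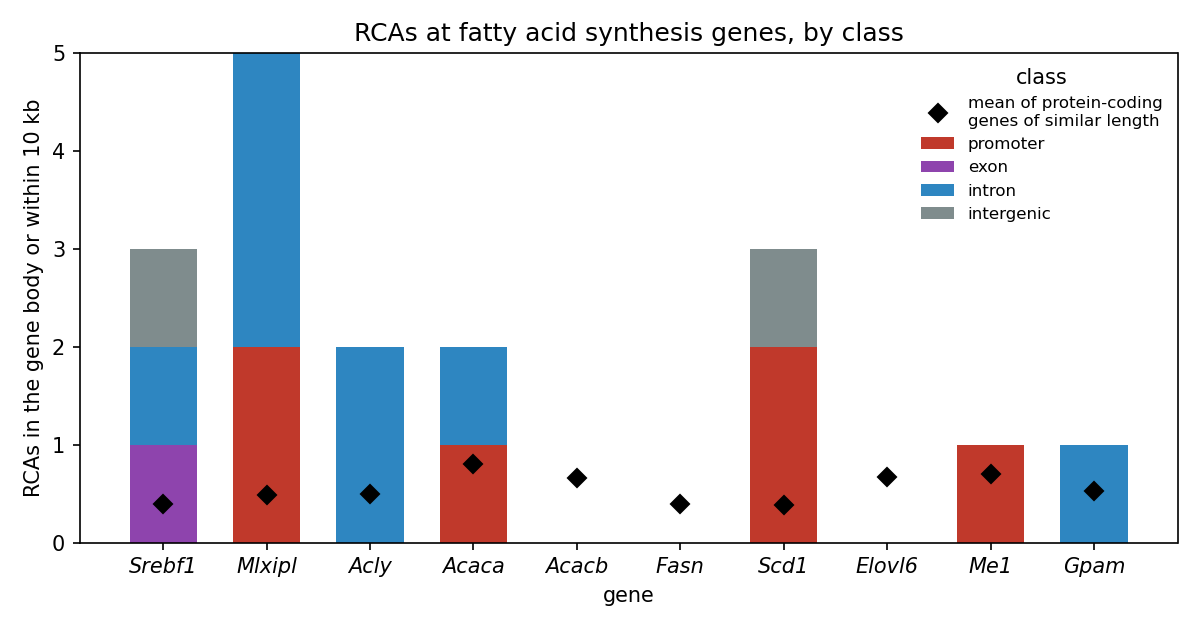
Number of RCAs in the body or within 10 kb of each gene, stacked by class, with a diamond for the mean number at protein-coding genes of similar length. Mlxipl had 5 RCAs, Srebf1 and Scd1 3 each, Acly and Acaca 2 each, Me1 and Gpam 1 each, and Acacb, Fasn and Elovl6 none.

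RCAs were classed as promoter when any GENCODE start site was within 200 bp, and otherwise as exonic, intronic or intergenic, in that order. Of the 17 RCAs, 6 were promoter RCAs (p-RCAs), 1 was exonic, 8 were intronic and 2 were intergenic (i-RCAs), and 15 lay in a gene body. Among all RCAs, 19.4% were in promoters, 10.2% in exons, 40.0% in introns and 30.3% in intergenic sequence. Every one of the 6 p-RCAs was at a start site of the gene itself. They belonged to 4 of the 10 genes, Mlxipl, Acaca, Scd1 and Me1, while 5.92% of all protein-coding genes (1303 of 22028) had an RCA within 200 bp of an own start site. Among genes of similar length that share ran from 5.88% for the length of Scd1 to 9.17% for that of Me1. With the midpoint of the RCA in place of any overlap, the count fell to 2 of the 10, Mlxipl and Me1, beside 4.66% of all protein-coding genes. No RCA at these genes was within 200 bp of the start site of another gene and not of the gene itself.

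The authors' caller scored each region by the area under its −log10 p curve, here called the area, which ranks regions within a list. The median area of the 17 RCAs was 381, with a range from 215 to 629, and the median of all RCAs was 278. An area above that overall median was found in 14 of the 17. Their median width was 361 bp (257 to 766 bp) beside 326 bp for all RCAs. The −log10 q at the summit ranged from 2.68 to 3.75, and its median of 3.14 was that of all RCAs. The RCAs of these genes thus stood above the whole list in area and level with it in summit q, and neither comparison was tested.

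**Figure D2:**
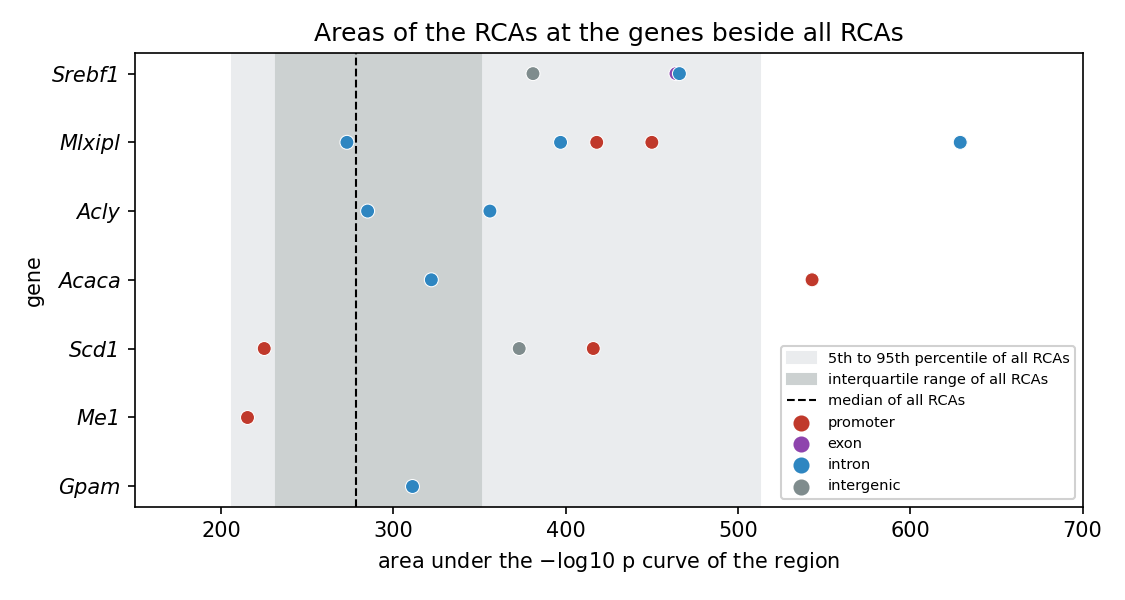
Area under the −log10 p curve of each of the 17 RCAs, 1 point per RCA, in a row for each of the 7 genes and coloured by class. Bands and the dashed line give the percentiles and the median (278) of all 8031 RCAs, and 14 of the 17 points lie to the right of the median.

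Srebf1 and Mlxipl encode the transcription factors that switch the pathway on. Srebf1 gives rise to SREBP-1a and SREBP-1c from separate start sites, and SREBP-1c is the form that prevails in liver. The minus-strand gene, chromosome 11 from 60199089 to 60222581, had 3 RCAs. The intronic RCA, from 60209140 to 60209662, had an area of 466, higher than that of 91.8% of all RCAs. It was 523 bp wide and lay 803 bp downstream of the nearest protein-coding start site that GENCODE gives the gene. RefSeq places the start of isoform c at 60210471, 809 bp from this RCA, and the starts of isoforms a and b at 60220627. The RCA thus sat inside the gene after the isoform c start, without reaching it, and it covered a start at 60209260 that RefSeq only predicts.

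The exonic RCA of Srebf1, from 60199721 to 60200125, overlapped coding sequence and 3′ UTR at the far end of the gene and had an area of 464. The i-RCA, from 60224703 to 60225168, lay 2122 bp upstream of the most distal GENCODE start site, with a predicted RefSeq start 517 bp away at 60224186, and had an area of 381. None of the 12 GENCODE start sites of Srebf1 had an RCA within 200 bp. The caller numbered control regions in genome order, so a gap in the numbers of consecutive RCAs counts control regions that are not in the list, which are those that overlapped an Alb-D2KO region. By these numbers, 3 control regions between the intronic RCA and the i-RCA were kept in Alb-D2KO liver, in the stretch that holds the starts of isoforms a, b, c and d. None was kept between the exonic and the intronic RCA. Of 2740 protein-coding genes of similar length, 26.2% had an RCA, and 3.18% had 3 or more.

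Mlxipl encodes ChREBP, the carbohydrate-responsive factor, and its upstream start site gives the shorter beta form of the protein. On chromosome 5 from 135089890 to 135138382, plus strand, it held 5 RCAs, more than any of the other 9 genes. A p-RCA from 135089681 to 135090013 (area 418) covered the upstream start at 135089890, which RefSeq gives to isoform 2. A second p-RCA, from 135106718 to 135107288 (area 450), covered the downstream start at 135106891 of isoform 1 and reached into its 5′ UTR and coding sequence. Both RefSeq promoters of this regulator were therefore among the regions called in control liver alone.

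The introns of Mlxipl held the other 3 RCAs. The one from 135100650 to 135101328 was 679 bp wide, and its area of 629 was the largest of the 17 and higher than that of 98.3% of all RCAs. It lay 5563 bp upstream of the downstream start, with an RCA from 135104321 to 135104583 (area 273) between them. The last, from 135118567 to 135118939 (area 397), lay 11649 bp downstream of the nearest start. No control region was kept between the upstream p-RCA and the downstream p-RCA, and 1 was kept between the downstream p-RCA and the last RCA. Beyond the limit of 10 kb, the next RCA upstream lay 11428 bp from the gene at the promoter of Vps37d, again with no kept region in between. These 5 consecutive control regions, over 29.0 kb, were all absent from the Alb-D2KO call. Of 2080 genes of similar length, 30.6% had an RCA, their mean number was 0.486 and 0.625% had 5 or more.

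**Figure D3:**
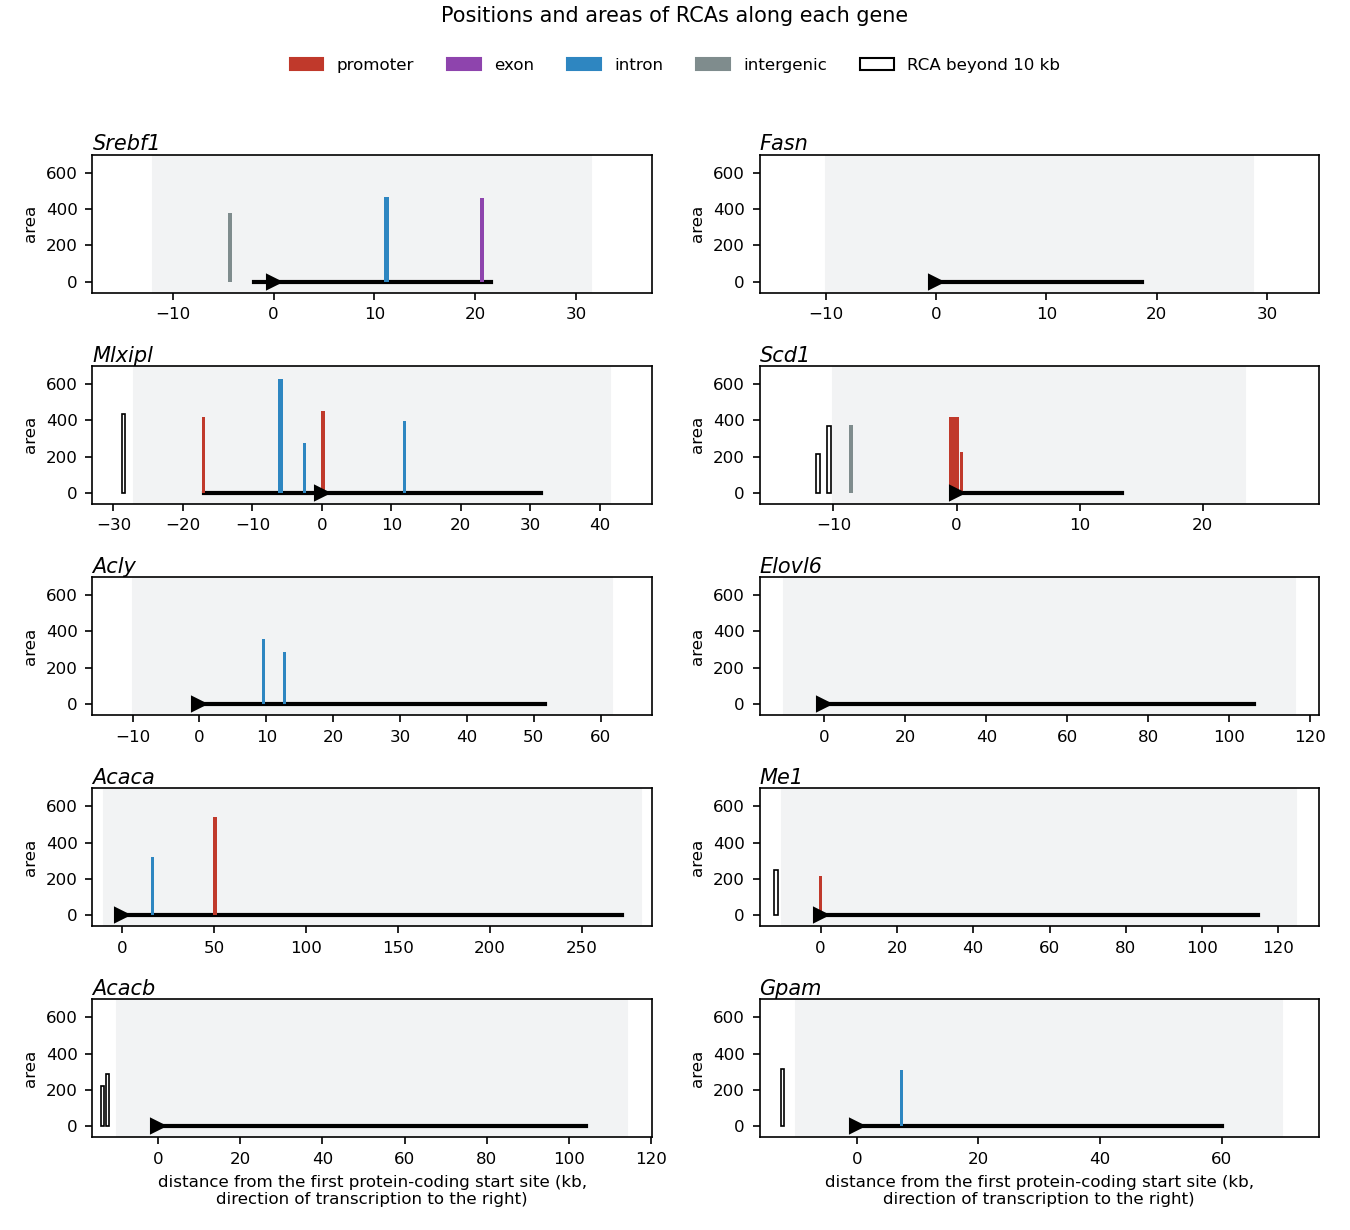
Position of each RCA along its gene, in kb from the first protein-coding start site with transcription to the right, and its area as bar height, coloured by class. Black lines are gene bodies, shading adds 10 kb to either side, white bars are RCAs beyond it, and narrow bars are widened to be visible; at Mlxipl 4 RCAs lie from the upstream start to the downstream start.

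Acly and Me1 supply the pathway. ATP-citrate lyase, the product of Acly, splits citrate to acetyl-CoA. Its gene (chromosome 11 from 100476353 to 100528000, minus strand) held 2 intronic RCAs, from 100518303 to 100518634 (area 356) and from 100515106 to 100515402 (area 285). They lay 4964 and 8196 bp downstream of the nearest start site, and no control region was kept between them. Of 1994 genes of similar length, 11.0% had 2 or more RCAs. No RCA was at an Acly promoter.

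Me1 encodes the cytosolic malic enzyme, which makes NADPH and is a classical thyroid hormone-responsive gene of the liver. Its body runs on chromosome 9 from 86581371 to 86695953, minus strand, and its single RCA, from 86695929 to 86696216, was a p-RCA over the start site at that end of the gene. It overlapped 5′ UTR and was 288 bp wide. The area of 215 was the lowest of the 17, higher than that of only 12.5% of all RCAs, so this p-RCA stood close to the lower limit of the list, which was 200. Of 1178 genes of similar length, 36.5% had at least 1 RCA and 9.17% had one at an own promoter.

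Acaca and Acacb encode the acetyl-CoA carboxylases. The Acaca product makes the malonyl-CoA used for synthesis, whereas the Acacb product, at the mitochondrial surface, makes the malonyl-CoA that restrains fatty acid import for oxidation. Acaca is the longest of the genes (271980 bp, chromosome 11 from 84129672 to 84401651, plus strand) and had 2 RCAs. A p-RCA from 84179973 to 84180501 lay 115 bp downstream of the start site at 84179858, 50.3 kb into the gene. It lay in an intron of the GENCODE transcripts, where RefSeq has predicted transcripts that start or have an exon, and the only curated RefSeq start, at 84195438, was 14937 bp away. Its area was 543, higher than that of 96.1% of all RCAs. The other RCA, from 84146130 to 84146386 (area 322), was intronic, 16430 bp downstream of the nearest start. A single control region was kept between them. Of 425 genes of similar length, 17.4% had 2 or more RCAs.

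Acacb (chromosome 5 from 114146535 to 114250761, plus strand) had no RCA. The nearest lay 12226 bp upstream, from 114134000 to 114134309, over an exon of Ung and with an area of 288. The 287 kb between the RCAs that flank the gene held 4 control regions, which are kept regions by construction, since the stretch of a gene without an RCA ends at the nearest RCA on each side. Among 1271 genes of similar length, 35.1% had an RCA.

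Fasn encodes fatty acid synthase, the enzyme that assembles palmitate. It had no RCA over its body on chromosome 11 from 120805846 to 120824547, minus strand, nor within 10 kb. The nearest was 21492 bp away, from 120784177 to 120784354, at the promoters of Gps1 and Rfng, with an area of 208. The 67.8 kb between the flanking RCAs held 4 control regions. Of 2646 genes of similar length, 26.9% had an RCA.

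Scd1 and Elovl6 modify the new fatty acids. Scd1 encodes stearoyl-CoA desaturase, which introduces the double bond of oleate and palmitoleate, and Elovl6 encodes the elongase that converts palmitate to stearate. Scd1, on chromosome 19 from 44394455 to 44407879, minus strand, is the shortest of the genes (13425 bp) and had 3 RCAs. A p-RCA from 44407700 to 44408465 covered the start sites at 44407709 and 44407879 with an area of 416 and was the widest of the 17 at 766 bp. A second p-RCA, from 44407329 to 44407590, lay 119 bp downstream of the start site at 44407709, over 5′ UTR and coding sequence, and had an area of 225. The i-RCA, from 44416274 to 44416634 (area 373), lay 8395 bp upstream.

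No control region was kept between these 3 RCAs of Scd1. Just beyond the limit of 10 kb, RCAs lay 10207 and 11084 bp upstream, with areas of 366 and 212. With these and others further on, 7 consecutive control regions over 139 kb were absent from the Alb-D2KO call. Runs of at least 5 such regions, a length chosen after the values were seen, held 13.8% of all RCAs (1105 of 8031), and 7 of the 17 RCAs of these genes were in such runs, 4 at Mlxipl and 3 at Scd1. Of 2567 genes as long as Scd1, 26.2% had an RCA and 2.61% had 3 or more. Elovl6, on chromosome 3 from 129532355 to 129638495, plus strand, had no RCA, the nearest lay 43413 bp beyond its end in an intron, and the stretch between the flanking RCAs held 1 control region. Of 1250 genes of its length, 35.8% had an RCA.

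Gpam encodes the mitochondrial acyltransferase that links the first fatty acid to glycerol 3-phosphate. Its gene, on chromosome 19 from 55067268 to 55127238, minus strand, had 1 intronic RCA, from 55119647 to 55120005, with an area of 311. The RCA lay 7198 bp downstream of the nearest start site. The next was just outside the limit, 12128 bp upstream of the gene, with an area of 317. Of 1800 genes of similar length, 30.7% had an RCA.

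**Figure D4:**
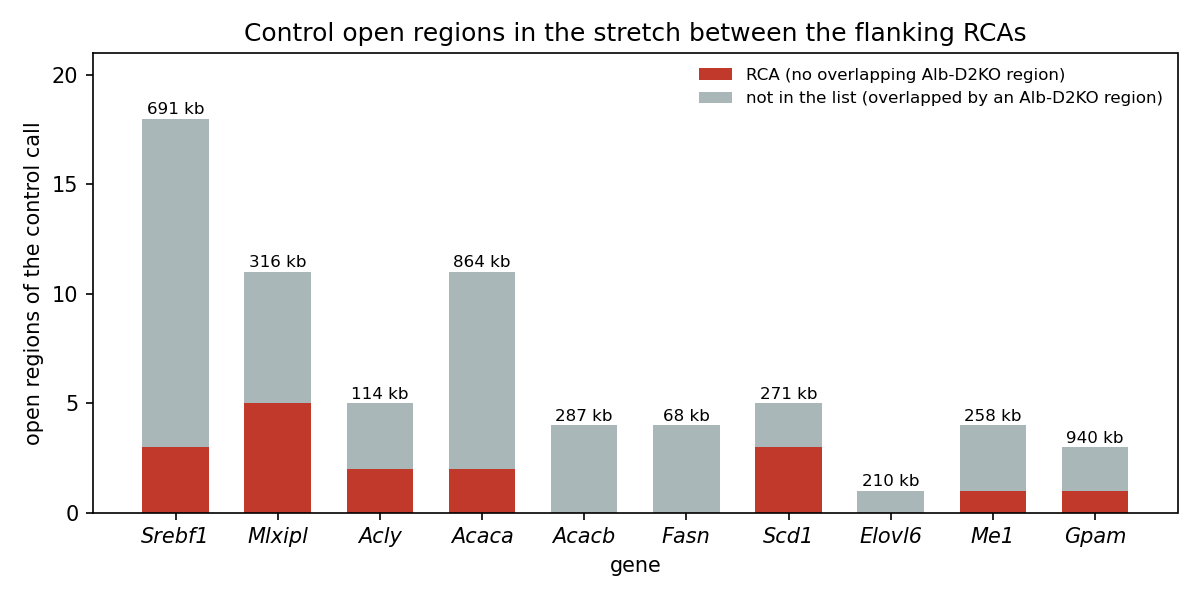
Open regions of the control call in the stretch between the RCAs that flank each gene and its 10 kb margins, as a stack of RCAs and of regions not in the list, with the length of the stretch above each bar. Of the control regions, 5 of 11 in the stretch of Mlxipl and 3 of 5 in that of Scd1 were RCAs. RCAs of a stretch can lie only in the gene and its 10 kb margins, whereas the other regions can lie anywhere in it. The bars of Acacb, Fasn and Elovl6 can hold no RCA by construction.

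The stretches between flanking RCAs differed in how many control regions they held. They held 18 at Srebf1 and 11 each at Mlxipl and Acaca, but 5 each at Acly and Scd1, 4 each at Acacb, Fasn and Me1, 3 at Gpam and 1 at Elovl6. For the 7 genes with an RCA, kept regions in the stretch numbered 15 for Srebf1, 9 for Acaca and 6 for Mlxipl. They numbered 3 each for Acly and Me1 and 2 each for Scd1 and Gpam. Kept regions were counted over the whole stretch, whereas its RCAs can lie only in the gene and its 10 kb margins. Kept regions and RCAs are therefore not compared in number. In the whole control call, whose highest number gives at least 22368 regions, 35.9% of regions were RCAs. Each stretch leaves out the flanking RCAs that define it, so its share of RCAs is not set against that value. The positions of the kept regions are not analysed here.

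A further 46 genes of the pathway, in 4 lists, were examined by the same rule. An RCA was found at 23 of them (50%), beside 26.6% on average for protein-coding genes of similar length, and 6 (13.0%) had one at an own promoter, beside 5.92% of all protein-coding genes. Of 14 other regulators, 7 had an RCA. Those with a p-RCA were Scap (area 272), whose product escorts SREBPs from the endoplasmic reticulum, and Mid1ip1 (area 231), whose product activates acetyl-CoA carboxylase. Among 9 genes of precursor and NADPH supply, 5 had an RCA, with a p-RCA at G6pdx (area 315), the NADPH-making glucose-6-phosphate dehydrogenase. Of 15 genes of chain making and modification, 7 had an RCA, with p-RCAs at Mcat (338), Elovl3 (331) and Fads2 (440), areas throughout, for mitochondrial malonyl transfer, elongation and desaturation. Of 8 genes of glycerolipid assembly, 4 had an RCA and none had a p-RCA. Alb-D2KO-only regions were at 0 of the 46, and at 1.02% of all protein-coding genes.

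Lists of neighbouring lipid pathways gave a setting for these counts. An RCA was found at 9 of 22 genes of cholesterol synthesis and uptake (40.9%), with 0 at an own promoter, and at 13 of 21 genes of fatty acid oxidation and ketogenesis (61.9%), with 5 at an own promoter (23.8%). Protein-coding genes of similar length had an RCA in 25.4% of cases for the cholesterol list and in 26.5% for the oxidation list, and the share with an RCA at an own promoter was 5.92% over all protein-coding genes. An Alb-D2KO-only region was at 1 gene of the oxidation list, Ppargc1a, which encodes a transcriptional coactivator of mitochondrial genes, and at 0 of the cholesterol list. Srebf2 is in both the cholesterol list and the list of other regulators and had no RCA. The 10 genes of fatty acid synthesis, at 70.0% and 40.0%, had the highest shares of these lipid lists, but their number is small and no test was made of the difference. The order of the own-promoter shares turned with the midpoint rule, in a recount made after the data were seen, to 2 of 10 for these genes and 5 of 21 (23.8%) for the oxidation list.

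**Figure D5:**
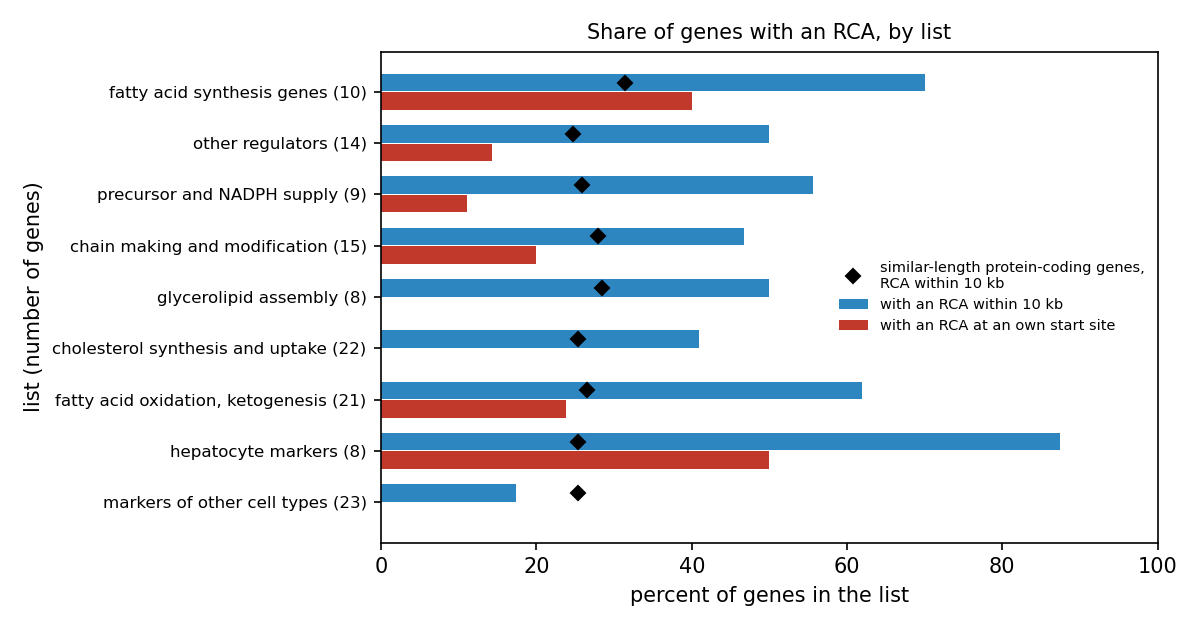
Percentage of genes in each list with an RCA within 10 kb (blue) and with an RCA at an own start site (red), with a diamond for the mean share of similar-length protein-coding genes with an RCA within 10 kb. The fatty acid synthesis genes stand at 70.0% and 40.0%, hepatocyte markers at 87.5% and 50%, and markers of other cell types at 17.4% and 0.

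Markers of liver cell types were examined by the same rule. Kept regions are not in the list, so a marker without an RCA says nothing about the tissue label of either genotype. Control regions without an Alb-D2KO counterpart lay at 7 of 8 hepatocyte markers (Alb, Ttr, Apoa1, Apob, Hnf4a, Asgr1 and Serpina1a, not Cps1), with 18 RCAs, beside 25.3% of protein-coding genes of similar length. They lay at 4 of 23 markers of other cells (17.4%), not far from the 25.4% of genes of similar length. These 4 were 2 of 4 for endothelial cells, 1 of 4 for cholangiocytes and 1 of 4 for lymphocytes. No RCA was at any of the 4 markers of Kupffer cells, the 4 of stellate cells or the 3 of adipocytes. The share with an RCA was 87.5% at the hepatocyte markers and 70.0% at the fatty acid synthesis genes (7 of 10), and neither this difference nor the part of expression in hepatocytes in either count was tested.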

How the data were processed

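ATAC-seq was analysed for 4 control and 4 Alb-D2KO libraries of adult mouse liver. Per the submitters' processing notes and the study's methods, the authors aligned reads to mm10 with BWA 0.7.17, checked them with FastQC and Picard, called regions with Genrich 0.6 on grouped libraries, and subtracted overlapping regions between genotypes. The deposited signal value is an area, summed by the authors' caller under the −log10 p curve over each region. The deposited −log10 q belongs to the summit, and the deposited score is the signal per bp times 1000 with a ceiling of 1000, used only as a check of the signal. Depth per library is unknown, and no per-library value, error or test could be had from pooled calls, so every count is a description.

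Regions were converted to 1-based positions and assigned to genes with GENCODE M21, an mm10 annotation that is not the release of the study's methods, by an overlap of at least 1 bp with the gene body or 10 kb around it. Promoters were the 200 bp to either side of any annotated start. Genes of similar length had 0.8 to 1.25 times the span. The named genes included the 10 genes of the pathway, other listed pathway genes with an RCA at an own promoter, and genes whose own start lay at a region near the 10. Also named were Dio2, Ung, whose exon lay at such a region, Srebf2, Ppargc1a and the hepatocyte markers. RefSeq promoters and start sites were of GRCm38.p6, the same build. Python 3.11.15, pandas 2.3.3 and numpy 2.4.6 were used, and the counting was tested on simulated intervals. The genes and lists were chosen with earlier results of these data known. Alternatives changed the distance, the promoter window, the regions that entered, the gene span and the range of lengths.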

Additional observations from a re-analysis of the deposited data

How the results depend on the processing

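RCAs lay at 7 of the 10 genes within 5 kb (21.0% of all protein-coding genes) and over the gene body alone (15.6%), at 6 with an area of at least 300 (12.8%) or a summit q of at most 0.001 (19.6%), and at all 10 within 50 kb (44.1%). The number of RCAs rose from 17 to 33 within 50 kb, as more sequence was searched, and was 12 to 17 under the other alternatives. With the midpoint of the region in place of any overlap, promoter RCAs lay at 2 of the 10 genes, Mlxipl and Me1 (4.66% of all protein-coding genes), in place of 4 (5.92%), because the midpoints at Acaca and Scd1 were over 200 bp from a start site. With a window of 1000 bp they lay at 5 (9.07%), and at 3 (3.12%) when an area of at least 300 was asked for, which was chosen after seeing the data. The share of similar-length genes with an RCA was 30.4% for 0.5 to 2 times the length and 30.7% for 0.9 to 1.1 times, against 31.4%. The median area of 381 ranged from 322 to 397. Its 95% binomial interval, 311 to 450, took the 17 RCAs as independent, although they come from 1 pooled call and several share a gene. The interval of the share counted genes more than once where the sets of similar length overlapped. Both intervals serve only as a yardstick for the alternatives and give no error of the data. Of 30 alternative values, 26 stayed within 1.5 times of a count or within the 95% interval of a share or median, and 4 did not. Some of the 26 could not have moved. A width limit of 200 bp removed no RCA of these genes, since the narrowest was 257 bp. The Alb-D2KO-only count of 0 within 10 kb fixed the count within 5 kb. The rise from 7 to all 10 genes within 50 kb was counted among the 26. No Alb-D2KO-only region lay within 5, 10 or 50 kb of the genes, where 0.826%, 1.02% and 2.19% of all protein-coding genes had one.

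Leaving out a library was not possible from lists called on pooled libraries. No paired analysis was possible because the results come from no test on single samples. The pooled call, the unknown depth and the small number of genes limit every count.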
